A study of Mus musculus with 76 samples.

Results

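The genes described here encode the proteins of the mouse cytosolic ribosome. They were chosen by symbol alone, as every gene of the table named Rpl, Rps or Rplp with a number and at most the letter a, x or y, together with Rpsa, and 75 of the 37980 genes met that rule. Of the 75 members, 45 belong to the large and 30 to the small subunit, and they lie on 19 chromosomes, with 4 on chromosome X (Rps4x, Rpl10, Rpl39 and Rpl36a). Ribosomal protein genes outside the naming rule, such as Rps3a1, Fau and Rack1, were measured and are given apart, and the copies and tissue-restricted paralogs of members were also kept apart.

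Every ribosome carries a set of these proteins on its ribosomal RNAs. The small subunit reads the messenger RNA, and the large subunit joins amino acids and holds the exit tunnel for the new protein and the stalk that recruits elongation factors. Most ribosomal protein messengers begin with a run of pyrimidines at the cap, through which the mTOR pathway and Larp1 control their translation. In the blood system, loss of 1 copy of several of these genes, such as Rps19, Rpl5 or Rpl11 in its human form, is known for Diamond-Blackfan anemia, and loss of Rpl22 is known for a block of early T cell development in mice.

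The study asked whether the homeobox factor Hoxb5 turns B lineage cells into T lineage cells. RNA with a poly(A) tail was measured in 76 libraries from sorted samples of 1000 cells, all from mice of C57BL/6 background. The 15 natural groups were, from bone marrow, hematopoietic stem cells (HSC, n = 4), multipotent progenitors (MPP, n = 4), early T progenitors (BM ETP, n = 3), pro/pre-B cells (n = 3), mature B cells (n = 4), mature T cells (n = 3) and mature myeloid cells (n = 2), and, from thymus, early T progenitors (thymic ETP, n = 2), double negative thymocytes DN1 (n = 3), DN2 (n = 3), DN3 (n = 2) and DN4 (n = 3), double positive thymocytes (DP, n = 4), CD4 single positive cells (CD4 SP, n = 3) and CD8 single positive cells (CD8 SP, n = 3). The 9 induced groups descended from pro/pre-B cells that were infected with Hoxb5 virus in culture and transplanted into sublethally irradiated recipients: induced BM ETP (n = 2), thymic ETP (n = 3), DN1 (n = 4), DN2 (n = 2), DN3 (n = 3), DN4 (n = 4), DP (n = 3), CD4 SP (n = 4) and CD8 SP (n = 4). Induced and natural cells therefore differ in transduction, culture, transplantation and irradiated host together, and these cannot be told apart. The labels do not say how donor cells were told from the host's own, nor the age of the animals, nor whether each library of a group had its own animal, so p-values measure only the spread between these libraries.

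All values are FPKM (fragments scaled by transcript length and library depth), and 1 pro/pre-B library that repeated another in every gene was left out, which left 75 libraries. Total FPKM ran from 667660 to 2004005 per library, and depth, read from the spacing of low values, was 0.974 to 11.3 fragments for each FPKM and kilobase (median 4.25). Median member levels over libraries ran from 452.6 (Rpl35) to 7337 FPKM (Rplp1). Hoxb5 itself was above 0 in 29 of 29 induced libraries (0.07 to 3.5 FPKM) and in 15 of 46 natural ones (up to 5.81 FPKM, in HSC). Summed B cell markers (8 genes) were at 7640 to 8030 FPKM in the induced BM ETP, against 68.7 to 86.9 in the natural BM ETP, while 10 T cell markers summed to 13.3 to 24.3 FPKM there, with 8 of the 10 at 0 in both libraries. Myeloid markers (7 genes) summed to 18500 to 30500 FPKM in the natural BM ETP. Natural killer markers (5 genes) summed to 3400 to 3940 FPKM in the natural DN1, against 355 to 629 in the induced DN1. In every thymic group, natural or induced, the T cell markers summed to at least 1070 FPKM.

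Promoters of 55 members were matched to RefSeq (GRCm38.p6), with 65 windows of 300 bases from 250 before to 50 after the annotated start. A run of at least 8 pyrimidines (C or T) within 20 bases of the start on the gene's strand stood in 44.6% of the member windows and in 16.0% of all 32851 windows. The motif CCGGAAG, searched on both strands as a match to the core of ETS family sites, stood in 36.9% against 8.86%, and CACGTG, the E-box bound by Myc and Max (both strands), in 12.3% against 7.15%. TATAAA on the gene's strand was found in 7.69% of member windows and in 8.32% of all. The 30 bases before to 20 after the start are given for members on which the results turn, with runs of at least 6 pyrimidines in capitals. Rps6, Rpl38, Rplp2, Rps27, Rps26 and Rpl39 hold such a run of 8 or more near the start, while Rpl41 and Rps4x are shown as members whose RefSeq start has none. A match is a description of these letters only. In order, they lie at chr4:86857348-86857397 (minus strand), chr11:114668550-114668599 (plus), chr7:141447621-141447670 (plus), chr3:90213629-90213678 (minus), chr10:128626487-128626536 (minus), chrX:37085203-37085252 (minus), chr10:128549149-128549198 (minus) and chrX:102189372-102189421 (minus).
Rps6: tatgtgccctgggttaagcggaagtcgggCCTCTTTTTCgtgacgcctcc
Rpl38: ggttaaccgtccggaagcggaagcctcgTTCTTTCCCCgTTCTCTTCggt
Rplp2: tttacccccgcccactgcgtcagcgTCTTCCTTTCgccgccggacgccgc
Rps27: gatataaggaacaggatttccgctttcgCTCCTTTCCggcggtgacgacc
Rps26: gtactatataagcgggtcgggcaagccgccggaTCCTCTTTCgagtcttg
Rpl39: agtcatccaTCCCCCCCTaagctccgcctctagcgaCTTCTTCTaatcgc
Rpl41: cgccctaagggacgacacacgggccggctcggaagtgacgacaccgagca
Rps4x: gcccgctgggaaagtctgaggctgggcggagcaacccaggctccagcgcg

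Libraries of 2 natural groups stood apart in how reads were split between members and their copies, and this touches each result that rests on them. Near-identical copies (at least 95% identity over 80% of the coding sequence) were annotated in the table for 64 of 75 members, 333 in all. The copies took 2.34 to 3.29% of the summed FPKM of members plus copies in most libraries. They took 0.26 to 0.288% in the 3 natural DN1 libraries and 0.195 to 0.214% in the 3 natural CD8 SP libraries. The myeloid libraries were at 5.06 and 5.08%, and 1 induced DP library (1.79%) and 2 natural CD4 SP libraries (2.16 and 2.17%) lay between. The 9 members with fewer than 300 coding bases (Rpl37, Rpl37a, Rpl38, Rpl39, Rpl41, Rps21, Rps27, Rps28 and Rps29) had a mean log2 level, minus that of all members, of -1.39 to -1.311 in natural CD8 SP and -1.031 to -0.925 in natural DN1. Induced CD4 SP came close to natural DN1 in this, at -0.921 to -0.805, with a copy share in the range of most libraries. Across the 75 members the correlation of relative level with log2 coding length was 0.50 in natural CD8 SP and 0.40 in natural DN1, and -0.21 to 0.31 in all other groups but the myeloid (-0.09). Whether these groups were processed differently is not given in the sources used here.

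**Figure D1:**
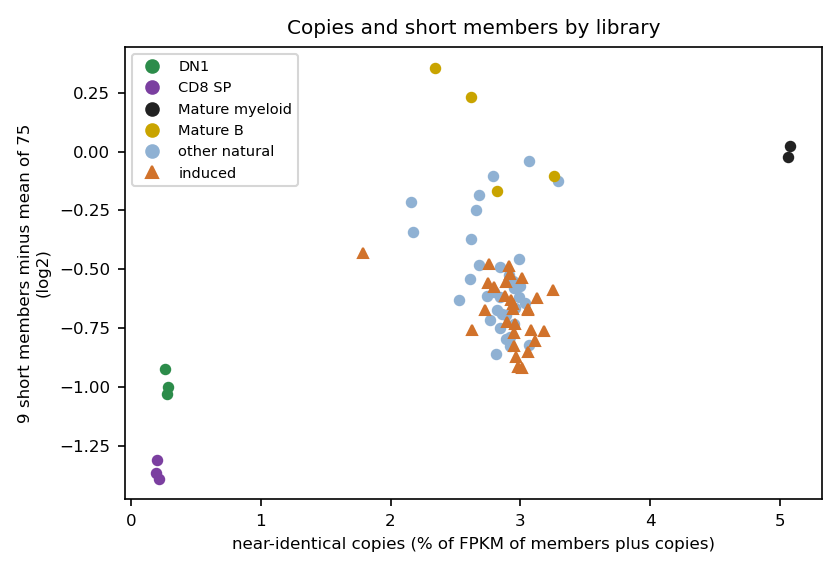
Each point is a library: the share of copies among the FPKM of members plus copies (horizontal axis, %) against the mean level of the 9 short members minus that of all 75 (vertical axis, log2). Natural DN1 (green) and natural CD8 SP (purple) lie apart at 0.195 to 0.288% on the horizontal axis, and the myeloid libraries at 5.06 and 5.08%. On the vertical axis these 2 natural groups are at -0.925 to -1.39, and induced CD4 SP libraries come close to natural DN1, at -0.921 to -0.805.

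Ribosomal protein messengers made up 13.9 to 41.1% of the total FPKM in every library but the 2 myeloid ones. The 75 members together took 39.27% ± 2.84 of the total FPKM in mature T cells (SD, n = 3), 29.93% ± 1.28 in HSC (n = 4) and 27.57% ± 0.451 in BM ETP (n = 3). The natural thymic stages other than DP lay between 22.17% ± 0.416 (DN1, n = 3) and 26.0% ± 0.80 (CD4 SP, n = 3). The DP cells stood below these, at 15.88% ± 1.07 (n = 4), with libraries at 14.4, 15.9, 16.3 and 16.9%. Induced DP cells were at 15.07% ± 1.46 (n = 3), induced BM ETP at 15.6 and 18.1%, and pro/pre-B cells, from which the induced cells descended, at 20.53% ± 0.85 (n = 3). Mature myeloid cells had 2.57 and 4.33%. In the order of the 24 groups, only mature T against HSC, HSC against BM ETP and induced DP against myeloid were neighbours whose libraries did not overlap.

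**Figure D2:**
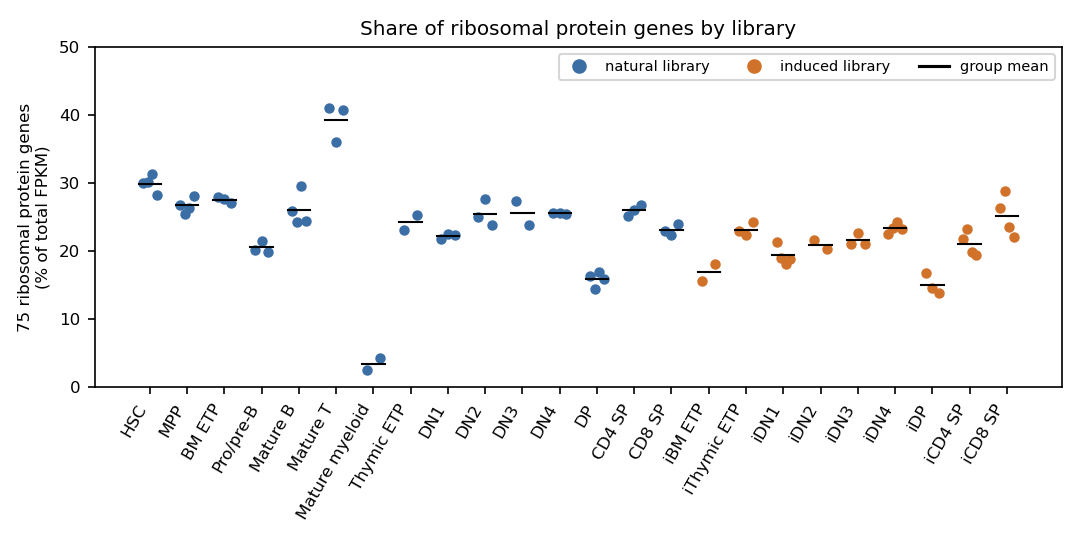
Percent of the total FPKM of each library (vertical axis) taken by the 75 ribosomal protein genes, by group (horizontal axis), with natural libraries in blue, induced libraries in orange and group means as lines. The 3 mature T libraries sit highest (36.0 to 41.1%), natural and induced DP lie between 13.9 and 16.9%, and the 2 myeloid libraries lie at 2.57 and 4.33%.

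The share depends on what else is in the library. In the myeloid libraries the 20 highest other genes took 71.4 and 50.2% of FPKM, and without those genes the members' share there was 8.98 and 8.69%, still below every other library. In DP cells the 20 highest other genes took 23.1 to 25.5%, and the members' share without them was 19.3 to 22.5%. As a scale of another kind, the summed FPKM of members was set against that of 31 similarly short nuclear transcripts of oxidative phosphorylation. That ratio was 39.5 to 46.4 in mature T cells, 31.0 to 32.9 in natural DN1, 28.9 to 32.6 in HSC, 13.7 to 14.9 in natural DP, 14.3 to 15.8 in induced DP, 11.7 and 12.0 in myeloid cells and 10.8 and 12.4 in induced BM ETP. The natural DN1 libraries overlapped those of HSC on this scale, while their share of FPKM was 21.7 to 22.5% against 28.2 to 31.3% in HSC. The 31 reference transcripts moved between groups as well. Their summed FPKM was 5627 to 6255 in natural DN1, 7332 to 9221 in HSC and 12820 and 13200 in induced BM ETP. The 3 mature T libraries were the highest of all on each of the 3 scales. The myeloid libraries were lowest on the first 2, and induced BM ETP library 1 was lowest on the third. In bulk samples such as these, fewer cells of a type and less RNA per cell cannot be told apart.

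Members moved largely as 1 block across the groups. All 75 differed among the 24 groups by the F test of the limma model, beside 85.2% of the 17416 genes tested, with the median SD of a member's group means at 0.602 on the log2 scale and the median SD within groups at 0.175. Of the 75, 69 had their highest group mean in mature T cells and 69 their lowest in myeloid cells. The correlation of a member's 24 group means with the mean of the other members was 0.697 to 0.971 (median 0.914), and 0.561 to 0.958 without the myeloid group. These group means share libraries and the total of each library. After the mean of all members was taken off in each library, the SD of a member's group means was 0.151 to 0.605 (median 0.28), against 0.112 within groups. All 75 still differed among groups on this relative scale, as did 97.9% of all genes on the same scale, so this count says nothing particular to the members.

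The widest spread belonged to Rplp1 and Rpl12 (SD of group means 0.905 each), Rps19 (0.863), Rps27 (0.854) and Rps18 (0.83). Rplp1, an acidic stalk protein, had the highest median of all members, 7337 FPKM. Its levels ran from 775 and 951 FPKM in myeloid cells to 18440, 25550 and 27560 in mature T cells. Rps4x, the X-linked small subunit gene, was at 5777 FPKM in the median and varied least between libraries of a group (SD 0.105). The narrowest spread between groups was that of Rpl28 (0.417), Rpl7 (0.43) and Rpl11 (0.433), an Mdm2-binding member of the particle around the 5S RNA. On the relative scale Rps10, Rpl26 and Rpl9 followed the set most closely (SD 0.151, 0.167 and 0.172).

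**Figure D3:**
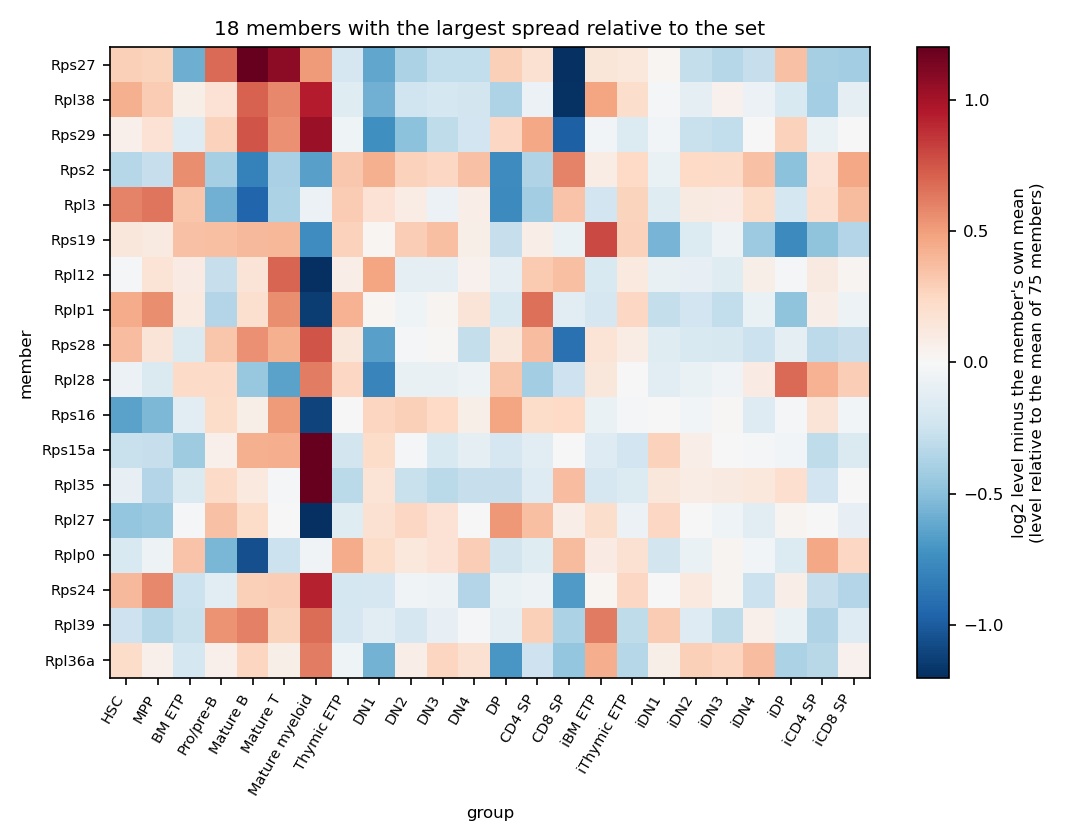
Level of 18 members (rows, those with the largest spread) in 24 groups (columns), as log2 level minus the mean of all 75 members in the library, centred on the member's own mean over groups, red above and blue below. Rps27 stands out in mature B (2.23 above the mean of all members, before centring) and mature T cells (1.73), and the short members Rps27, Rpl38, Rps29 and Rps28 are blue in natural DN1 and natural CD8 SP.

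Rps27, a small subunit protein whose paralog is Rps27l, departed most from the set (relative SD 0.605). It was at 11880, 12600, 16380 and 20950 FPKM in mature B cells and at 12880, 15510 and 20510 in mature T cells. No other group passed 6873 FPKM, the highest of 3 pro/pre-B libraries, and the 5 lowest libraries were natural CD8 SP, at 1190, 1196 and 1290, and myeloid, at 1273 and 1306. Its near-identical copy Rps27rt was listed at group means of 1780 and 1950 FPKM in mature B and T cells and 7.27 FPKM in natural CD8 SP, so the split of reads between them is uncertain. Rps29 and Rps21, further short small subunit members, were likewise highest in mature T and B cells. Rps21 was at 5390 to 8774 FPKM in mature B and 5993 to 10040 in mature T cells, against 1874, 2697 and 2790 in pro/pre-B cells and 3351 to 4129 in HSC. Rps2 and Rpl3 had the opposite placement within the set. Rpl3, a core protein near the peptidyl transferase center, was at 2133 to 2421 FPKM in HSC and at 884.5 to 900.4 in mature B cells. Rps2 was at 3356 to 3393 FPKM in BM ETP and at 1355 to 1588 in mature B cells.

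Members were lower in induced than in natural cells at most stages of the T lineage. Averaged over the 9 stages with equal weight, 64 of 75 members were lower in induced cells and none passed the test as higher, with a median log2 fold change of -0.253 beside 0 for all genes. Of all genes, 13.7% were called lower and 16.2% higher in that average. Without the DN1 and CD8 SP stages, whose natural libraries stand apart, 72 members were lower (median -0.363). The largest average differences were those of Rps18 (-0.63, SE 0.042, adjusted p = 1.05e-18), Rps19 (-0.61, SE 0.050, adjusted p = 6.98e-15) and Rplp1 (-0.55, SE 0.054, adjusted p = 3.14e-12). With quantile normalization the average split was 15 higher and 35 lower. The proliferation list (20 genes) had a median of 0.82 in the same average, with 15 genes higher and 1 lower, and its part in the result was not tested.

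**Figure D4:**
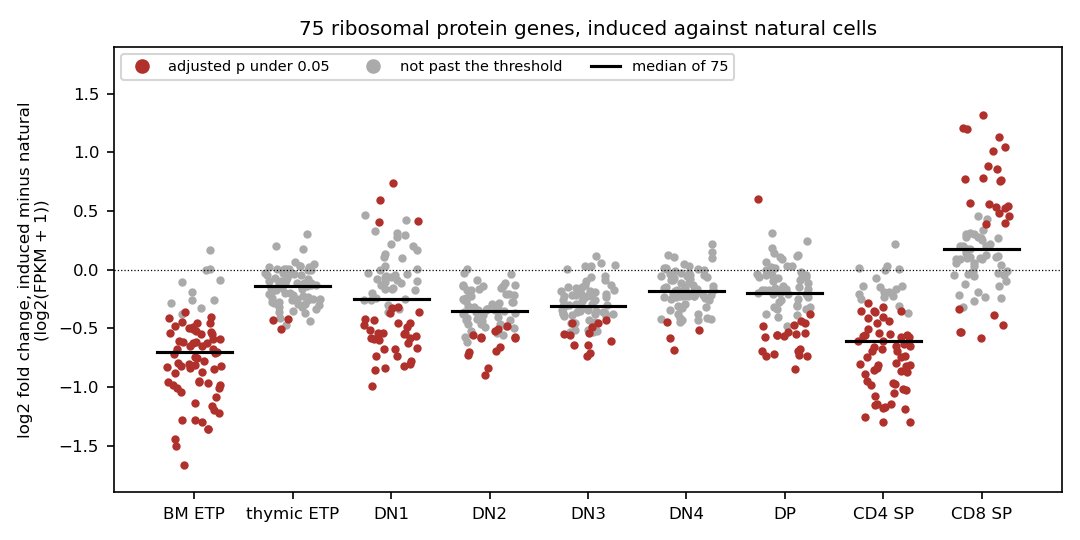
Log2 fold change of induced minus natural cells on the log2(FPKM + 1) scale (vertical axis) for the 75 members at 9 stages (horizontal axis), with members past an adjusted p of 0.05 in red, others in gray and the median as a line. The medians lie below 0 at 8 stages, lowest at BM ETP (-0.699) and CD4 SP (-0.612), and above 0 at CD8 SP (0.176).

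Where limma called no member in 1 direction at a stage, or in the average, at most 1 member passed in that direction at an unadjusted p under 0.05, a single one in thymic ETP. The same unadjusted count was 0 for MPP against HSC, mature B against pro/pre-B cells and each step to DP or on to a single positive stage that had no member called in 1 direction.

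At the BM ETP stage 64 members were lower in induced cells and none passed as higher (median -0.699), beside 16.8% of all genes lower and 14.4% higher. Rps6, the small subunit protein phosphorylated by S6 kinase, was at 935 and 1245 FPKM in the induced libraries and at 2852, 2971 and 2998 in the natural ones. The groups did not overlap, and the log2 fold change was -1.45 (SE 0.137, adjusted p = 3.04e-13). Rpl13 was at 1013 and 1345 FPKM against 3559, 3597 and 3995 (-1.67, SE 0.175, adjusted p = 9.46e-12), and Rpl36 also fell (-1.51, adjusted p = 3.41e-06). All 3 stalk genes fell, with Rplp0 at 3056 and 4214 FPKM against 6699, 6937 and 7356. Relative to the mean of all members, 17 were higher and 17 lower, beside 37.7% of all genes higher and 7.55% lower on the same scale. Taking off the members' own mean balances the directions among them, here and in the comparisons that follow. At the BM ETP stage the share called in either direction was that of all genes, so the count says nothing particular to the members. On this scale Rpl39 of the exit tunnel was 0.89 higher (SE 0.20, adjusted p = 2.29e-04), Rpl22 0.73 higher (adjusted p = 1.49e-05) and Rps27 0.72 higher (adjusted p = 1.61e-04), while Rpl13 was lower (-0.94, adjusted p = 3.39e-09). With quantile normalization 5 members were higher and 37 lower. The natural BM ETP carried the myeloid markers given above and the induced BM ETP the B cell markers, and proliferation genes had a median of 2.57 with 16 higher and 3 lower. The part of these in the result was not tested.

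The induced BM ETP were also set against the pro/pre-B cells from which they descended. Their summed B cell markers (7640 to 8030 FPKM) lay close to those of the pro/pre-B cells (7910 to 8630 FPKM), far above the natural BM ETP (68.7 to 86.9 FPKM). Their T cell markers were at 13.3 to 24.3 FPKM, against 69.9 to 135 in pro/pre-B cells and 4.11 to 6.8 in natural BM ETP. In that comparison 24 members were lower and Rpl5 alone was higher (median -0.338), beside 7.4% of all genes lower and 8.1% higher. Rpl37, a short large subunit protein, had the lowest value (-0.95, SE 0.204, adjusted p = 3.82e-04), followed by Rpl37a (-0.90, adjusted p = 1.70e-04) and Rps27 (-0.86, adjusted p = 0.00111). Rpl5, which carries the 5S RNA and binds Mdm2, was at 1578 and 1773 FPKM against 1166, 1168 and 1338 (0.45, SE 0.136, adjusted p = 0.014). Short members varied between the 3 pro/pre-B libraries, with Rps27 at 3380, 6599 and 6873 FPKM. Without induced library 1, 5 members were lower, and without pro/pre-B library 2 or 4, 15 were.

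In thymic ETP, 3 members were lower in induced cells, among them Rpsa (-0.43, adjusted p = 0.038) and Rplp0 (-0.42, adjusted p = 0.0493), beside 3.78% of all genes lower and 4.49% higher. The share of members called lower was about that of all genes, so this count says nothing particular to the members. Rpsa, the laminin receptor homolog of the small subunit, was at 1721, 1778 and 2005 FPKM against 2301 and 2648. None of the 3 calls was made when natural library 1 or 2 or induced library 1 or 2 was left out. With equal totals 1 member was higher and none lower, and with quantile normalization 1 was higher and 1 lower.

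In DN2, DN3 and DN4 the members called were all lower in induced cells, 14, 12 and 4 of 75, with medians of -0.353, -0.309 and -0.183. Of all genes, 0.626, 1.19 and 0.35% were called lower and 0.879, 2.35 and 0.39% higher at these stages. Rps19, a small subunit assembly protein, was called at each. It was at 2001 and 2385 FPKM in induced DN2 against 3630, 4035 and 4061 in natural DN2 (-0.84, SE 0.165, adjusted p = 0.00113). In DN3 it was at 2422, 2602 and 2694 against 4216 and 4353 (-0.74, adjusted p = 0.00496). In DN4 it was at 1861, 1938, 2363 and 2607 against 3418, 3423 and 3609 (-0.68, adjusted p = 0.0026). The libraries of Rps19 did not overlap at any of the 3 stages. Rps14, a small subunit protein of the platform, had the lowest value in DN2 (-0.90, adjusted p = 9.59e-04), Rps12 (-0.71, adjusted p = 0.00153) and Rplp2 of the stalk (-0.64, adjusted p = 0.00937) followed Rps19 in DN3, and Rpl8 (-0.58, adjusted p = 0.0248) and Rplp0 (-0.51, adjusted p = 0.0122) in DN4. The counts moved with single libraries, and leaving each out in turn gave 0 to 14 in DN2 (0 without induced library 2, 4 without induced library 1 or natural library 2, 9 without natural library 1). It gave 1 to 12 in DN3 (1 without natural library 1, and 4, 6 and 7 without induced libraries 1, 2 and 3) and 1 to 3 in DN4 (1 without natural library 2, and 2 without natural library 1 or 3 or induced library 2 or 3). Fitted with the groups compared alone, the counts were 2, 1 and 17. With equal totals they were 6, 6 and 1. With quantile normalization 4 were lower in DN2, 1 in DN3 and 2 in DN4, where 1 was higher.

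In DN1, 32 members were lower and 4 higher in induced cells (median -0.254), beside 8.93% of all genes lower and 9.9% higher. Rpl27a, a large subunit protein, was at 675, 743, 786 and 871 FPKM in induced DN1 against 1258, 1302 and 1624 in natural DN1 (-0.86, SE 0.145, adjusted p = 6.93e-06), with no overlap of libraries. Over all libraries its copies took a median of 21.6% of the FPKM of Rpl27a plus copies (0.0 to 27.7%). The split of reads between Rpl27a and its copies is therefore uncertain. Rps26, which lies at the messenger exit channel, was at 2267, 2293, 2628 and 2924 FPKM against 1383, 1520 and 1624 (0.74, adjusted p = 4.85e-05), and Rpl41 (0.60, adjusted p = 0.00749), Rpl28 (0.42, adjusted p = 0.0443) and Rpl36a (adjusted p = 0.0185) were higher as well. Of the 66 members of 300 coding bases or more, 32 were lower and 3 higher (median -0.32), and of the 9 short members 1 was higher and none lower (median 0.28). Among the 11 members without a copy in the table, 8 were lower and 1 higher (median -0.59). With quantile normalization 17 were higher and 18 lower. With equal totals 9 were higher and 26 lower, and in a fit of the 2 groups alone 9 were higher and 35 lower. The natural DN1 carried the natural killer markers given above and the low copy share. With the FPKM of copies added to their member, 6 members were higher and 30 lower. The part of the markers, and of whatever else sets these libraries apart, was not tested.

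In DP cells the split depended on scaling. In the fit as deposited 20 members were lower and 1 higher in induced cells (median -0.200), beside 5.53% of all genes lower and 4.83% higher. With equal totals 7 were higher and 8 lower, and with quantile normalization 16 were higher and 11 lower. Rps27a, which is made as a fusion with ubiquitin, was at 1118, 1284 and 1286 FPKM in induced DP against 2012, 2093, 2255 and 2480 in natural DP (-0.84, SE 0.128, adjusted p = 2.82e-06). Rpl34 (-0.74, adjusted p = 1.41e-05) and Rps16 (-0.74, adjusted p = 3.06e-06) were lower too. Rpl5 was the member called higher. It was at 1278, 1287 and 1628 FPKM in induced DP against 897, 911, 914 and 923 in natural DP (0.61, SE 0.113, adjusted p = 1.21e-04), with no overlap of libraries. Rpl11 and Rpl5 work in the same 5S particle, and Rpl11 was at 1190, 1348 and 1519 against 1247, 1265, 1321 and 1595 FPKM, with overlapping libraries. The third induced library lay between in its copy share. Without it 14 members were lower, and with the 3 libraries of intermediate copy share left out 14 were lower and 2 higher.

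In CD4 SP cells 57 members were lower in induced cells and none passed as higher (median -0.612), beside 12.4% of all genes lower and 14% higher. Rpl30 was at 981, 1013, 1089 and 1160 FPKM in induced CD4 SP against 2270, 2716 and 2885 in natural CD4 SP (-1.30, SE 0.139, adjusted p = 3.92e-11). Rps28 (-1.30, adjusted p = 7.74e-09) and Rpl39 (-1.26, adjusted p = 1.49e-06) were next. Rplp1 was at 5330, 6053, 6085 and 7457 FPKM against 12470, 14570 and 15250 (-1.18, SE 0.149, adjusted p = 4.30e-09). Rplp0, to which Rplp1 binds in the stalk, was at 4488, 4859, 4917 and 5128 against 4501, 4948 and 5090 FPKM, with overlapping libraries. All 9 short members were lower (median -1.15), as were 48 of the 66 longer ones (median -0.56) and 8 of the 11 without a copy (median -0.37). Minus the mean of all members, the short ones were at -0.921 to -0.805 in induced and -0.578 to -0.214 in natural CD4 SP. On the relative scale 24 members were higher and 24 lower, beside 45.2% of all genes higher and 4.71% lower. There Rpl28 was 0.83 higher (SE 0.078, adjusted p = 4.38e-13) and Rpl30 was lower (-0.69, adjusted p = 6.20e-06). With equal totals 2 members were higher and 38 lower, and with quantile normalization 15 were higher and 23 lower. The proliferation list was higher in induced CD4 SP (19 of 20 genes, median 2.81), and its part in the result was not tested.

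CD8 SP was the stage at which more members were higher than lower in induced cells, 21 against 6 (median 0.176), beside 5.63% of all genes higher and 5.01% lower. The short members carried the largest values. Rpl38, known for its part in translating Hox messengers in the embryo, was at 857, 1060, 1112 and 1607 FPKM in induced CD8 SP against 424, 443 and 494 in natural CD8 SP (1.32, SE 0.169, adjusted p = 1.46e-08). Rps27 (1.21, adjusted p = 1.14e-07) and Rps29 (1.199, adjusted p = 1.27e-06) were next. Of the 9 short members 6 were higher and none lower (median 1.01). Of the 66 longer ones 15 were higher and 6 lower (median 0.11), and of the 11 without a copy 3 were higher (median 0.12). Rpl6 (-0.58, adjusted p = 7.49e-05) and Rpl27a (-0.53, adjusted p = 0.00895) were among the members that were lower. For Rpl27a the split of reads with its copies is uncertain, as in DN1. Rpl6 was at 1019, 1120, 1256 and 1291 FPKM against 1668, 1730 and 1848. Natural CD8 SP had the lowest copy share of all groups. With the FPKM of copies added to their member, 25 members were higher and 5 lower. The part of whatever else sets these libraries apart was not tested.

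From DN4 to DP the ribosomal protein messengers fell in natural cells. Of 75 members 65 fell and none rose (median -0.815), beside 12.8% of all genes lower and 11.8% higher. Rps2, an RNA-binding protein of the small subunit entry site, was at 2319, 2811 and 3054 FPKM in DN4 and at 616, 673, 750 and 859 in DP (-1.91, SE 0.132, adjusted p = 1.07e-17). Rpl36a (-1.70, adjusted p = 2.99e-16) and Rpl3 (-1.65, adjusted p = 2.33e-16) were next. Relative to the mean of all members, 24 members were higher and 21 lower, beside 55.6% of all genes higher and 3.91% lower. The share called in either direction was about that of all genes, so this count says nothing particular to the members. Rps2 (-1.10, adjusted p = 3.91e-12), Rpl36a (-0.88, adjusted p = 1.46e-09) and Rpl3 (-0.84, adjusted p = 6.20e-09) were lower. On that scale Rps27 was higher (0.58, adjusted p = 2.30e-04), and it did not pass the test on the absolute scale. Rps27 was at 3086, 3233 and 3688 FPKM in DN4 and at 2572, 2721, 2855 and 3184 in DP (-0.24, adjusted p = 0.365). Between DN3 and DN4 no member passed the limma test, beside 3.53% of all genes higher and 3.2% lower. At an unadjusted p under 0.05 there were 2 members higher and 2 lower, and quantile normalization gave none.

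In the same step of induced cells 73 members fell and none rose (median -0.876), beside 10.4% of all genes lower and 9.2% higher. With quantile normalization 45 were lower and 3 higher, and in natural cells 45 were lower and 1 higher. Rps2 was at 2301, 2354, 2396 and 2501 FPKM in induced DN4 and at 691, 703 and 799 in induced DP (-1.71, SE 0.132, adjusted p = 1.36e-15). Rpl36a (-1.61, adjusted p = 3.20e-15) and Rpl14 (-1.47, adjusted p = 8.53e-13) were next. The difference of the step between induced and natural cells was tested itself. No member passed (lowest adjusted p = 0.151), beside 0.597% of all genes lower and 0.5% higher, and 3 members each way had an unadjusted p under 0.05. With quantile normalization 2 members passed as higher.

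Genes that work with the ribosome were taken as lists. Ribosome biogenesis genes fell in 25 and rose in 1 of 34 between natural DN4 and DP (median -1.17). Fbl, the methyltransferase of box C/D particles, fell (-2.72, SE 0.20, adjusted p = 2.33e-16), as did Npm1, a nucleolar chaperone (-2.31, SE 0.12, adjusted p = 1.60e-23). Translation factors fell in 26 and rose in 2 of 34 (median -0.81), with Eef1g, of the elongation factor 1 complex, at -2.28 (SE 0.13, adjusted p = 7.02e-21). Of 13 regulators of ribosomal protein synthesis 5 rose and 2 fell (median 0.52). Maf1, a repressor of RNA polymerase III (0.88, SE 0.15, adjusted p = 6.6e-06), Rps6kb1, which encodes S6 kinase (0.93, adjusted p = 0.00259), Rptor of the mTOR complex (1.21, adjusted p = 0.00328) and Mycn (1.14, adjusted p = 0.0217) rose. Myc fell (-1.71, SE 0.33, adjusted p = 5.14e-05) and Larp1, which binds pyrimidine-capped messengers, fell (-1.2, SE 0.23, adjusted p = 5.37e-05), and Eif4ebp2, an inhibitor of cap binding, rose (1.84, SE 0.56, adjusted p = 0.0107). Mitochondrial ribosomal proteins, which serve another ribosome, fell in 36 of 77 and rose in none (median -0.60). Proliferation genes rose in 2 and fell in 5 of 20 at this step (median 0.39).

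From DP to CD4 SP, levels rose again in natural cells. Of 75 members 73 rose and none fell (median 0.828), beside 13.2% of all genes higher and 13.5% lower. With quantile normalization 41 were higher and 2 lower. Rplp1 was at 3530, 4261, 4536 and 4913 FPKM in DP and at 12470, 14570 and 15250 in CD4 SP (1.71, SE 0.149, adjusted p = 2.23e-14). Rps18 (1.52, adjusted p = 9.86e-17) and Rpsa (1.39, adjusted p = 4.50e-15) were next. Rpsa was at 859, 993, 1050 and 1124 FPKM in DP and at 2557, 2569 and 2776 in CD4 SP, with no overlap. Relative to the set 21 members were higher and 20 lower, beside 4.69% of all genes higher and 61.5% lower. Rplp1 was 0.84 higher (adjusted p = 1.38e-11). Translation factors rose in 19 and fell in 2 of 34 (median 0.39), and Rps3a1 (0.77), Fau (0.69) and Rack1 (0.60), which lie outside the naming rule, rose. Mitochondrial ribosomal proteins fell in 17 and rose in 7 of 77, and proliferation genes fell in 19 of 20 (median -2.26).

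From DP to CD8 SP, 46 members were higher and 3 lower in natural cells (median 0.513), beside 10.7% of all genes higher and 13.2% lower. Rps2 was at 2442, 2511 and 2672 FPKM in CD8 SP (1.82, SE 0.132, adjusted p = 3.08e-17), and Rpl3 was higher as well (1.57, adjusted p = 8.40e-16). The 3 members that were lower, Rps27 (-1.21, adjusted p = 6.43e-08), Rps29 (-0.75, adjusted p = 0.00143) and Rps28 (-0.56, adjusted p = 0.00857), are short members. Of the 66 longer members 45 were higher and none lower (median 0.59), and of the 11 without a copy 8 were higher (median 0.68). Ribosome biogenesis genes rose in 21 and fell in 2 of 34 (median 0.86), with Fbl at 2.33 (SE 0.20, adjusted p = 3.70e-14). Proliferation genes rose in 5 and fell in 1 of 20 at this step (median -0.32). Their mean log2 level was 7.139 in natural CD8 SP and 7.133 in natural DP, against 4.979 in natural CD4 SP. The part of proliferation in the result, and whether the cells labelled CD8 SP follow DP, was not tested. With quantile normalization 36 members were higher and 11 lower.

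Induced cells also had higher levels in single positive cells than in DP. In induced CD4 SP 47 members were higher than in induced DP and none was lower (median 0.502), beside 5.9% of all genes higher and 3.96% lower. Rplp0 was at 1845, 2423 and 2424 FPKM in induced DP and at 4488 to 5128 in induced CD4 SP (1.13, SE 0.117, adjusted p = 1.86e-10). Rps2 (1.17, adjusted p = 2.11e-09) and Rpl8 (1.09, adjusted p = 8.91e-08) were higher too. No short member passed in this step (median 0.26). Without induced DP library 3, which has the intermediate copy share, 31 members were higher. In induced CD8 SP 74 were higher than in induced DP and none was lower (median 0.927), beside 9.73% higher and 9.47% lower. With quantile normalization 46 were higher and 4 lower. Rps2 was at 2321, 2494, 3036 and 3088 FPKM against 691, 703 and 799 (1.89, SE 0.132, adjusted p = 2.73e-17). Rpl14 (1.58, adjusted p = 8.85e-14) and Rpl3 (1.53, adjusted p = 9.47e-15) were next.

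**Figure D5:**
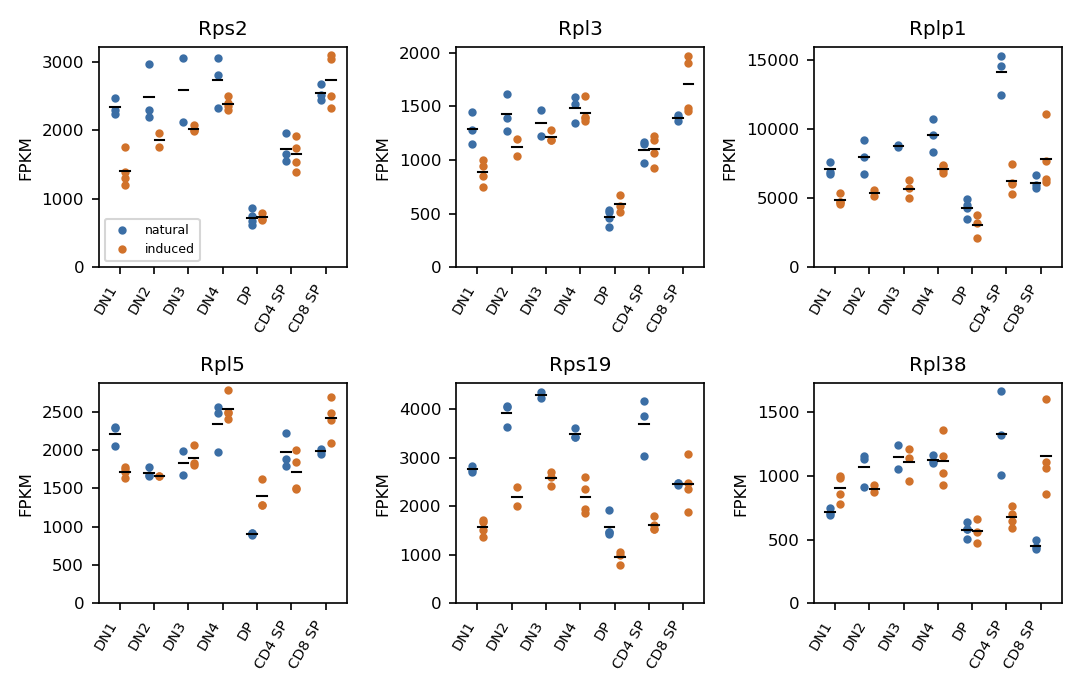
FPKM of 6 members (panels, vertical axis from 0) in libraries of 7 thymic stages (horizontal axis), natural in blue and induced in orange, with group means as lines. Rps2 and Rpl3 drop in DP in both sources, Rplp1 reaches 12470 to 15250 FPKM in natural CD4 SP and 5330 to 7457 in induced CD4 SP, Rpl5 is higher in induced than in natural DP, and Rpl38 is lowest in natural CD8 SP.

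The difference of the single positive groups from DP, with groups taken as labelled, was not the same in induced and natural cells. For CD4 SP, 27 members had a lower step in induced cells and none a higher one (median -0.314), with 2 higher at an unadjusted p under 0.05 in limma, beside 7.69% of all genes lower and 9.65% higher in this test of the difference. Rpl30 had the largest value (-1.33, SE 0.196, adjusted p = 5.85e-07). It was at 1014 to 1359 FPKM in natural DP and 2270 to 2885 in natural CD4 SP, and at 1131, 1131 and 1335 in induced DP and 981 to 1160 in induced CD4 SP. Rpl39 (-1.06, adjusted p = 0.0054) and Rps27 (-1.03, adjusted p = 9.96e-04) were next, and all 9 short members were among the 27. Rplp1 rose in both sources and rose less in induced cells (-0.65, SE 0.21, adjusted p = 0.0233). Quantile normalization gave 3 members higher and 20 lower. Without 2 of the 3 natural CD4 SP libraries and 1 of the 3 induced DP libraries, those of intermediate copy share, 20 were lower, and 15 of the 27 calls were kept. Proliferation genes were higher in 20 of 20 in the same test, and their part in the result was not tested.

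For CD8 SP, 34 members had a higher step in induced cells and 2 a lower one (median 0.504), beside 4.09% of all genes higher and 3.24% lower. Rps29 (1.41, SE 0.261, adjusted p = 9.43e-05), Rps27 (1.37, adjusted p = 2.78e-05) and Rpl38 (1.36, adjusted p = 3.74e-05) had the largest values, and Rpl6 (-0.65, adjusted p = 0.00367) and Rpl7 (-0.48, adjusted p = 0.027) the lowest. Of the 9 short members 6 were higher (median 1.34), and of the 66 longer ones 28 were higher and 2 lower (median 0.32). Without induced DP library 3, 20 were higher. With equal totals the split was 17 higher and 5 lower, and with quantile normalization 18 higher and 9 lower. This difference rests on the natural CD8 SP libraries, whose copy share stands apart. With the FPKM of copies added to their member, 36 were higher and 2 lower.

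In bone marrow, mature B cells had higher member levels than pro/pre-B cells. Of 75 members 59 were higher and none lower (median 0.635), beside 11.5% of all genes higher and 13.4% lower. Rps27 was at 3380, 6599 and 6873 FPKM in pro/pre-B cells and 11880 to 20950 in mature B cells (1.49, SE 0.168, adjusted p = 8.75e-11), and Rps21 (1.42, adjusted p = 3.21e-11) and Rplp1 (1.15, adjusted p = 5.96e-09) were next. Of the 9 short members 8 were higher (median 0.97), and of the 66 longer ones 51 were higher (median 0.58). Relative to the set 16 members were higher and 19 lower, beside 4.96% of all genes higher and 40.9% lower. The share called in either direction was about that of all genes, so this count says nothing particular to the members. Rpl28 (-0.69, adjusted p = 1.20e-10), Rpl4 of the exit tunnel (-0.63, adjusted p = 7.10e-05) and Rpl7a (-0.62, adjusted p = 2.35e-09) were lower. Ribosome biogenesis genes rose in 4 and fell in 3 of 34 (median 0.11), Myc was higher (2.00, SE 0.33, adjusted p = 2.15e-06), and proliferation genes fell in 20 of 20 (median -4.80). With equal totals 36 members were higher and 3 lower, and with quantile normalization 18 were higher and 9 lower.

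MPP had lower member levels than HSC. Of 75 members 18 were lower and none higher (median -0.276), beside 5.01% of all genes lower and 3.12% higher. Rpl37a (-0.56, SE 0.141, adjusted p = 0.00449), Rpl35 (-0.53, adjusted p = 0.0285) and Rpl31 (-0.53, adjusted p = 0.0173) had the lowest values, and the last 2 lie at the rim of the exit tunnel. Rps14 was at 5735, 8296, 8996 and 9076 FPKM in HSC and at 5561 to 6090 in MPP. Leaving out single libraries gave 4 to 23, with 4 without HSC library 3, 6 without MPP library 2, 9 without HSC library 2 and 10 without HSC library 1 or MPP library 1. Quantile normalization gave 1 higher and 8 lower.

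By role, the 3 stalk genes fell together from DN4 to DP in natural cells (median -1.15) and induced cells (-0.99), and rose together to natural CD4 SP (0.96). Of all 75 members 65 and 73 fell in the first 2 of these steps and 73 rose in the third. In BM ETP, DN1 and the average over stages all 3 were lower in induced cells (medians -0.96, -0.54 and -0.41). There 64, 32 and 64 of all 75 members and 16.8, 8.93 and 13.7% of all genes were lower. In DN2, DN3, DP and CD4 SP 2 of the 3 stalk genes were lower, and in thymic ETP and DN4 1 was. In CD8 SP 1 stalk gene was higher and none lower. The 4 X-linked members fell together from DN4 to DP in both sources (medians -1.14 and -1.05), as did 65 and 73 of all 75 members. Of 18 members mutated in Diamond-Blackfan anemia, 11 fell from DN4 to DP in natural and 17 in induced cells (medians -0.56 and -0.74), where 65 and 73 of all 75 members and 12.8 and 10.4% of all genes fell. In induced CD4 SP 15 of the 18 were lower (median -0.72), beside 57 of 75 members and 12.4% of all genes, and in induced CD8 SP 6 were higher and 1 lower (median 0.26), beside 21 and 6 of 75 members and 5.63 and 5.01% of all genes. Of the 4 members of the 5S particle and Mdm2 binding group, 4 were lower in induced BM ETP (median -0.62), 3 in CD4 SP (-0.57), 3 in DN1 (-0.35) and 3 in the average over stages (-0.15). In these comparisons 64, 57, 32 and 64 of all 75 members and 16.8, 12.4, 8.93 and 13.7% of all genes were lower. In DP and in CD8 SP 1 of the 4 was higher and 1 lower (medians 0.09 and 0.19), and in DN3 1 was lower (-0.05). Of all 75 members 1 was higher and 20 lower in DP, 21 higher and 6 lower in CD8 SP, and 12 lower in DN3. Paralogs of members were lower in level. Rpl22l1 was at group means of 71.2 (myeloid) to 617 FPKM (HSC) and Rps27l at 95.2 (CD4 SP) to 594 (induced BM ETP), and Rpl10l was listed at 0 in every group. Rpl22l1 and Rps27l fell from DN4 to DP (-1.63, adjusted p = 4.61e-09, and -1.89, adjusted p = 3.61e-11).

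The genes outside the set whose 24 group means followed the mean of the members most closely included partners of the ribosome. Among 11022 candidates the highest correlations included those of Zbtb11 (0.931), Grcc10 (0.914), Eef1b2 (0.910), Rack1 (0.904), Nol12 (0.881), Fdx1l (0.876), Eif3k (0.855), Eef1g (0.850) and Pole4 (0.847). Eef1b2 and Eef1g belong to the elongation factor 1 complex, and Rack1 sits on the small subunit. Zbtb11 lies next to the ribosomal protein gene Rpl24. No gene of the table was matched to the symbol Rpl24, so it is not among the members. Whether reads of Rpl24 and Zbtb11 were told apart was not tested. Without the myeloid group these 9 had correlations of 0.651 to 0.869. Over groups, the mean of members correlated with translation factors at 0.65 (0.37 without myeloid, 23 groups), with short oxidative phosphorylation transcripts at 0.59 (0.28), with ribosome biogenesis at 0.50 (0.36) and with proliferation at -0.45 (-0.67). These are descriptions over group means that share libraries and totals.

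Several members overlap another gene in the annotation, and no source used here states strand. In 17 members an exon overlaps another gene of the table, in 14 of these a protein-coding one. Among those named above these are Rpl5 with Fam69a, Rpl12 with Lrsam1, Rpl28 with Ube2s, Rpl31 with Tbc1d8, Rpl35 with Arpc5l, Rps18 with Vps52, Rps27a with Clhc1, Rps28 with Kank3, Rps10 with the antisense transcript Gm15420 and Rps2 with the antisense transcript Snhg9. Reads of such a pair cannot be told apart without strand, and the values of these members are uncertain to that extent.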

How the data were processed

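Libraries of 1000 sorted cells were reverse transcribed to double-stranded DNA and prepared with the Nextera XT kit, per the labels' protocols. Reads were handled with bcl2fastq, TopHat, Cufflinks 2.2.1 and Cuffnorm on the mouse build NCBIM37, per the submitters' processing notes. The values the authors deposited are FPKM per Ensembl gene, with no counts used here and no parameters or strand setting given in the sources used here. Symbols came from GENCODE vM21 (GRCm38) and matched 32916 of 37980 IDs (86.7%), and coordinates printed are GRCm38 and belong to the RefSeq promoters only.

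FPKM was taken as log2(FPKM + 1), and only genes reaching 1 FPKM in 2 or more libraries were used, which left 17416 genes, with all 75 members among them. All 24 groups of the 75 libraries entered 1 linear model, with limma 3.58.1 in R 4.3.3 (trend and robust settings). Tests were two-sided, with Benjamini-Hochberg adjustment over all genes tested and a threshold of 0.05, and no p was adjusted over the members alone. A fold change on the log2(FPKM + 1) scale understates the change of low genes. On simulated data of these libraries with 200 changed among 17416 genes, 11.2% of calls were false for the DP comparison and 11.8% for DN3, which is above the threshold of 0.05 taken as a share. Of changes of 2-fold, 51% were found for DP and 38% for DN3, and of 4-fold changes 91 and 74%. A small count of members called therefore does not show that few members changed. The relative scale subtracts the mean of the 75 members in each library. Copies were found with BLAST 2.17.0 among annotated transcripts. Other steps used Python 3.11.15, numpy 2.4.6 and pandas 2.3.3.

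Members named are those fixed for their role, the 3 highest and 3 lowest called values of each comparison, and those of largest or smallest spread. Some members that this rule names are not reported here. Members named on the relative scale were chosen after their values were seen, as were the library values shown. The members, lists and comparisons were chosen with earlier results of these data known. Alternatives were a pseudocount of 0.1, no filter, equal totals, quantile normalization, a replicate block, a fit of only the groups compared, and each library left out. Adding copies to their member, leaving out 3 libraries of intermediate copy share and leaving out natural DN1 and CD8 SP were chosen after seeing the data.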

Additional observations from a re-analysis of the deposited data

Results flagged for a closer look

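The step from DP to CD4 SP differed between induced and natural cells by a test of the difference itself. Of 75 members 27 were lower and 0 were higher in that test, in which limma also gave 7.69% of all genes lower and 9.65% higher. In copy share 2 of the 3 natural CD4 SP libraries (2.16 and 2.17%) and 1 of the 3 induced DP libraries (1.79%) were below the rest of their group, and 20 members were lower without them, with 15 of the 27 calls kept. The step from DP to CD8 SP differed as well, with 34 members higher and 2 lower, beside 4.09% of all genes higher and 3.24% lower. With equal totals 17 were higher and 5 lower, and with quantile normalization 18 were higher and 9 lower. The natural CD8 SP libraries behind the latter had a copy share of 0.195 to 0.214%. With the FPKM of copies added to their member, 36 members were higher and 2 lower in that test. The part of whatever else sets these libraries apart was not tested.

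Single libraries far from the rest of their group were looked for in 192 groups of values, each of 4 libraries, and 7 were found, where chance gives about 1 in 20. The 7 are no more than that rate would give, so they are listed only and not read as results. Induced CD8 SP library 2 was high for Rps27 (4001 FPKM) and Rps29 (4184 FPKM). Induced DN1 library 3 stood apart for Rps29 at 1644 FPKM. DP library 3 was high for Rps19 at 1924 FPKM, and HSC library 3 stood apart for Rpl22 at 1576 FPKM. Induced DN4 library 3 stood apart in the share of copies, at 2.88%. Mature B library 4 stood apart in the ratio of members to short oxidative phosphorylation transcripts, at 29.9.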

How the results depend on the processing

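Counts are of members called in the direction that led each comparison as deposited. With quantile normalization they were BM ETP 37, thymic ETP 1, DN1 18, DN2 4, DN3 1, DN4 2, DP 11, CD4 SP 23 and the average 35 (induced minus natural), MPP minus HSC 8, CD4 SP minus DP 41, mature B minus pro/pre-B 18, induced DP minus induced DN4 45, induced CD8 SP minus induced DP 46, the DN4 to DP difference 2 and the DP to CD8 SP difference 18. In DP the direction reversed, with 16 higher. With equal totals they were thymic ETP 0 (reversed, 1 higher), DN2 6, DN3 6, DN4 1, DP 8, MPP minus HSC 9, mature B 36 and the DP to CD8 SP difference 17. Fitted with only the groups compared, they were DN2 2, DN3 1, DN4 17, DP 9, induced BM ETP minus pro/pre-B 6 and the DP to CD8 SP difference 16, and that fit moved the median of all genes by 0.106 in induced minus natural CD8 SP and by -0.122 in CD8 SP minus DP. Without the 3 libraries of intermediate copy share, induced CD4 SP minus induced DP gave 31 and the DP to CD8 SP difference 22, and the DP to CD4 SP difference gave 20, with 15 of 27 calls kept. With a block for the same replicate number, where same-numbered libraries did not deviate together (correlations -0.04 to 0.054), thymic ETP gave 1, and no other count moved by over 1.5 times. Leaving out each library gave 0 to 3 in thymic ETP, 0 to 14 in DN2, 1 to 12 in DN3, 1 to 3 in DN4, 4 to 23 in MPP minus HSC, 0 to 1 in DN4 minus DN3, 5 to 27 in induced BM ETP minus pro/pre-B, 31 to 52 in induced CD4 SP minus induced DP and 20 to 37 in the DP to CD8 SP difference. The cause was not tested. Of 848 calls, 842 were kept with a pseudocount of 0.1, 831 without a filter, 833 with copies added, 682 with equal totals (4 changed sign, 0 of them called) and 500 with quantile normalization (100 changed sign, 19 of them called). All 75 members differed among groups under each alternative run.

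The values are FPKM, so levels are shares of a library, and no amount of RNA per cell was measured. Groups held 2 to 4 libraries. On simulated data 51% of 2-fold changes were found for induced minus natural DP and 38% for DN3. How far group size limits the other comparisons was not compared. Induced and natural libraries differ in host and handling, which cannot be told apart from Hoxb5.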
